A study of Mus musculus with 12 samples.

Results

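Catecholamines and serotonin are made from amino acids by a short chain of enzymes, and 10 genes of that chain were followed in mouse neuroendocrine thyroid carcinomas. They are Th, Ddc, Dbh, Pnmt, Tph1 and Gch1 for synthesis, Slc18a1 and Slc18a2 for vesicle storage, and Maoa and Maob for breakdown. They were taken by symbol from the 23284 gene rows of the deposited read count tables. The data are messenger RNA counts from primary tumours, 5 with the genotype Rb1/Trp53/Crebbp and 7 with the genotype Rb1/Trp53. Both groups thus share the Rb1 and Trp53 alleles and differ in Crebbp, a histone acetyltransferase and coactivator named for its binding to CREB, and the study asked which genes Crebbp regulates. The sources used here do not give the driver of the alleles, the age of the mice or whether each tumour had its own mouse, and the p-values below thus measure spread among tumours. The 10 genes were proposed with the difference of Th and Ddc between these genotypes already known. Their levels and fold changes between the genotypes are therefore given as a description, without p-values.

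Tyrosine hydroxylase (Th) turns tyrosine into DOPA and sets the pace of catecholamine synthesis, and tryptophan hydroxylase (Tph1 outside the brain) does the same for serotonin. Both need tetrahydrobiopterin, whose synthesis starts with GTP cyclohydrolase (Gch1). Aromatic amino acid decarboxylase (Ddc) serves both routes, giving dopamine from DOPA and serotonin from 5-hydroxytryptophan. Dbh turns dopamine into noradrenaline, Pnmt turns noradrenaline into adrenaline, the vesicular transporters Slc18a1 and Slc18a2 load the amines into granules, and the monoamine oxidases Maoa and Maob degrade them. Thyroid C cells, the calcitonin-producing neuroendocrine cells of the gland, are known to take up and decarboxylate amine precursors.

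Gene counts amounted to 9.14 M to 20.5 M per Rb1/Trp53/Crebbp tumour and 9.11 M to 57.3 M per Rb1/Trp53 tumour. Levels are given as CPM, reads per 1 M reads of a library scaled by TMM (trimmed mean of M values). C cell markers such as Calca and Chga were present in every tumour, summing to 25211 to 138417 CPM in Rb1/Trp53/Crebbp tumours and 95549 to 233941 CPM in Rb1/Trp53 tumours. Crebbp itself averaged 53.9 ± 4.19 CPM (SD, n = 5) in Rb1/Trp53/Crebbp tumours and 54.6 ± 20.0 CPM (SD, n = 7) in Rb1/Trp53 tumours, so that counts over the whole gene could not check the genotype. Of 14989 genes tested with edgeR, 18.3% were called at an adjusted p under 0.05, 9.64% as higher and 8.61% as lower in Rb1/Trp53/Crebbp tumours. The higher genes made up 52.8% of calls under TMM and 78.0% with scaling by library size alone, which moved the median log2 fold change of all genes to 0.18, against -0.02 under TMM. For 6.26% of tested genes all tumours of one genotype lay outside the range of the other.

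The chain did not move as one. Of the 10 genes, 7 had enough counts to be tested, 1 of which (Ddc) was called as higher and 3 (Th, Gch1 and Slc18a1) as lower in Rb1/Trp53/Crebbp tumours, beside the 18.3% of all genes. The ranges did not overlap for 2 of them, Th and Slc18a1, beside 6.26% of all genes. Nothing is read from these counts, since the genes were chosen on this contrast. Slc18a2, Maoa and Maob were not called, and Dbh, Pnmt and Tph1 were too low to test. The median log2 fold change of the 7 tested genes was -0.47, and that of all tested genes was -0.02.

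**Figure D1:**
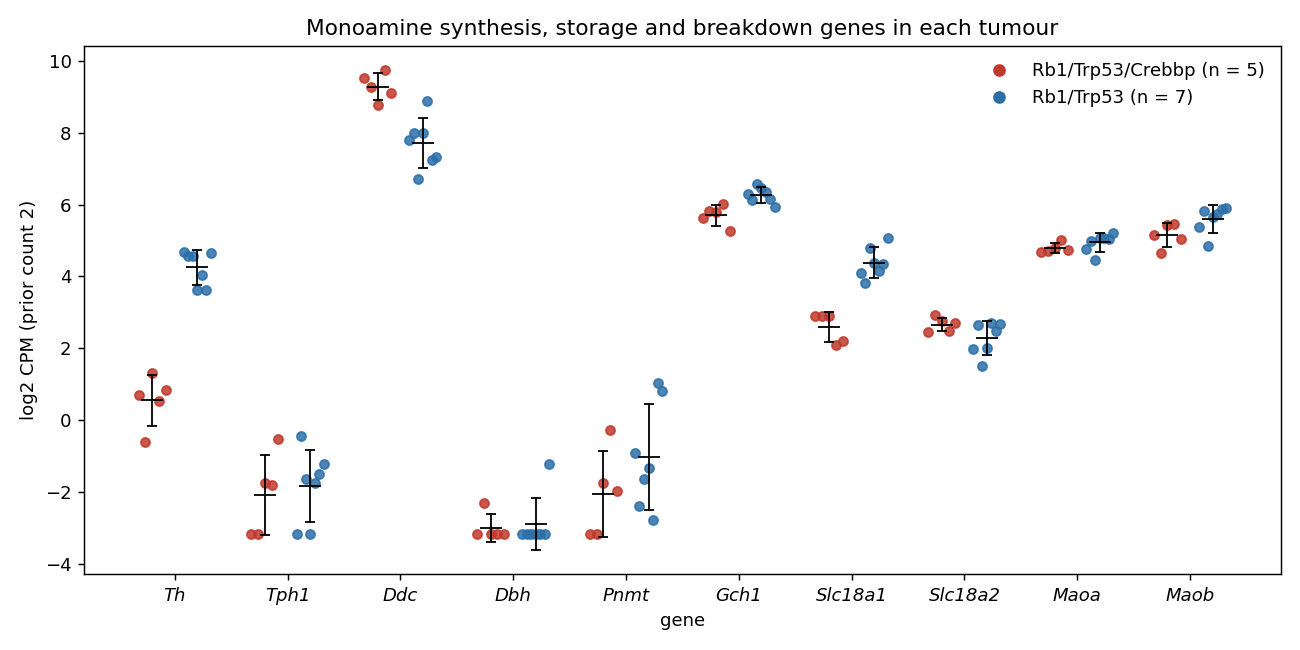
The vertical axis gives log2 CPM with a prior count of 2, 1 point per tumour, for each of the 10 genes (horizontal axis), with the mean and SD of each genotype. Th and Slc18a1 points of the 2 genotypes do not overlap, Ddc points overlap in 1 Rb1/Trp53 tumour, and Dbh, Pnmt and Tph1 lie at the bottom.

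The first catecholamine enzyme was far scarcer in the Rb1/Trp53/Crebbp tumours. Th stood at 1.51, 0.550, 2.36, 1.33 and 1.67 CPM in the 5 Rb1/Trp53/Crebbp tumours, from 24, 6, 50, 15 and 23 reads. In the 7 Rb1/Trp53 tumours Th stood at 25.7, 23.5, 23.4, 12.3, 16.2, 12.2 and 25.1 CPM, from 150 to 970 reads. Every Rb1/Trp53/Crebbp tumour was thus below every Rb1/Trp53 tumour. The 95% Poisson interval was 1.75 to 3.11 CPM for the highest Rb1/Trp53/Crebbp tumour and 10.3 to 14.3 CPM for the lowest Rb1/Trp53 tumour, and it gives the precision of each value from counting error alone, not the spread between tumours. The group means were 1.48 ± 0.651 CPM (SD, n = 5) in Rb1/Trp53/Crebbp and 19.8 ± 6.01 CPM (SD, n = 7) in Rb1/Trp53 tumours, a log2 fold change of -3.70 ± 0.34 (SE) or 13.0-fold lower, the 9th lowest log2 fold change of all tested genes. The 12 tumours are bulk tissue, in which fewer cells holding Th and less Th per cell cannot be told apart.

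Th also had a higher coefficient of variation within groups than the median tested gene. Its coefficient of variation was 43.9% in Rb1/Trp53/Crebbp and 30.4% in Rb1/Trp53 tumours, where the medians over all tested genes were 17.4% in Rb1/Trp53/Crebbp and 22.5% in Rb1/Trp53 tumours. These medians are not matched for read number. Th had only 6 to 50 reads per Rb1/Trp53/Crebbp tumour, so its spread there includes counting error, which was not separated from differences between tumours. Within the Rb1/Trp53 group the values fell into a set of 4 tumours at 23.4 to 25.7 CPM and a set of 3 at 12.2 to 16.2 CPM, a description of these tumours only. Over the 24 alternative settings the log2 fold change ranged from -3.94 to -3.34, given as a description of the gene that was chosen on this contrast.

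Since Crebbp is named for CREB, the stretch of DNA before the start of Th is shown with the 2 starts of Ddc, the gene that differed the other way, and with Gch1 and Slc18a2. Each sequence runs 5′ to 3′ from 150 bases before the annotated start to 10 bases after it, from RefSeq on GRCm38.p6; the counts themselves were made on mm9. Capitals mark the cAMP response element TGACGTCA, its shorter form TGACG, read on the other strand as CGTCA, or the box TATAAA, read on the other strand as TTTATA. The Th stretch is chr7:142899986-142900145 on the minus strand, the Slc18a2 stretch chr19:59260728-59260887 on the plus strand, and the Gch1 stretch chr14:47189404-47189563 on the minus strand. The Ddc stretches are chr11:11890399-11890558 (start a) and chr11:11898135-11898294 (start b), both on the minus strand.
Th: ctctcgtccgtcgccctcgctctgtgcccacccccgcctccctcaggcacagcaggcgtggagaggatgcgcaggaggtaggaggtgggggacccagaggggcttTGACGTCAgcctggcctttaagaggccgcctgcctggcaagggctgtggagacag
Slc18a2: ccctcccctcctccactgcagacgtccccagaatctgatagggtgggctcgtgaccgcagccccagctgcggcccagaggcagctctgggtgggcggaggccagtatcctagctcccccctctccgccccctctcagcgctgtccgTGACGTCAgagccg
Gch1: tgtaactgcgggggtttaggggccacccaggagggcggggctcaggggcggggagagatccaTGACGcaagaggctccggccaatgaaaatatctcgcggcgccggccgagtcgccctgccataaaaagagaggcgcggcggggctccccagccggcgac
Ddc start a: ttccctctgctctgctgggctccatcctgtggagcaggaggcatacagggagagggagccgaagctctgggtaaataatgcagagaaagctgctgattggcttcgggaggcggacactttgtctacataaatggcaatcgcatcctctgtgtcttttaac
Ddc start b: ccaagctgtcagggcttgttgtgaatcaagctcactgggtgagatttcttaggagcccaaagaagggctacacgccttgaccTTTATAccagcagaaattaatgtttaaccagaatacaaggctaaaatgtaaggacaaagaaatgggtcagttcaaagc
Th carried TGACGTCA with its first base at -45 and Slc18a2 carried it at -4, counted from the start. The RefSeq windows, 250 bases before to 50 after a start, held this palindrome in 1.79% of 32851 promoters. The shorter TGACG, which overlaps it, was in 20.8% of promoters, among them that of Gch1 at -88, and it was also in those of Dbh, Maoa and Tph1. Neither window of Ddc held TGACG on either strand. Start b held TATAAA on the other strand only, as TTTATA with its first base at -68. That sequence was on either strand in 13.6% of promoters, among them that of Gch1 at -188, before the printed stretch. Among the 10 genes 7 had a listed promoter, which leaves Pnmt, Slc18a1 and Maob. Of the 2 genes with the full element, Th was 13.0-fold lower and Slc18a2 was not called. A match is a run of letters, not a bound site.

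Ddc, the decarboxylase one step after Th, lay in the opposite direction. It stood at 733, 620.1, 438, 858 and 548 CPM in the 5 Rb1/Trp53/Crebbp tumours. In the 7 Rb1/Trp53 tumours it stood at 221, 254, 105, 256, 473, 151 and 159 CPM. A single Rb1/Trp53 tumour, replicate 5 at 473 CPM, passed the lowest Rb1/Trp53/Crebbp tumour, replicate 3 at 438 CPM, and all others kept apart. The means were 639 ± 163 CPM (SD, n = 5) in Rb1/Trp53/Crebbp and 231 ± 121 CPM (SD, n = 7) in Rb1/Trp53 tumours, a log2 fold change of 1.47 ± 0.31 (SE), 2.76-fold higher. Without Rb1/Trp53 replicate 5 the log2 fold change was 1.72. With a thyroid follicular or an adipocyte marker score as a covariate the Ddc call was lost, at log2 fold changes of 2.03 ± 0.54 and 1.24 ± 0.46 (SE). Most other calls were lost with it: of all genes 4 were called with the follicular and 111 with the adipocyte score, against 2736 without one.

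Counts of 2 genes within the same library need no scaling between libraries, so the balance of the chain was also read as ratios. There were 484.5, 1128, 185.6, 644 and 329 reads of Ddc per read of Th in the Rb1/Trp53/Crebbp tumours. In the Rb1/Trp53 tumours there were 8.61, 10.8, 4.47, 20.8, 29.1, 12.4 and 6.32. The lowest Rb1/Trp53/Crebbp ratio was thus 185.6 and the highest Rb1/Trp53 ratio 29.1, with no overlap, and the medians were 484.5 in Rb1/Trp53/Crebbp and 10.8 in Rb1/Trp53 tumours. Both genes moved this ratio the same way, so it restates their 2 differences in a form free of the scaling.

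**Figure D2:**
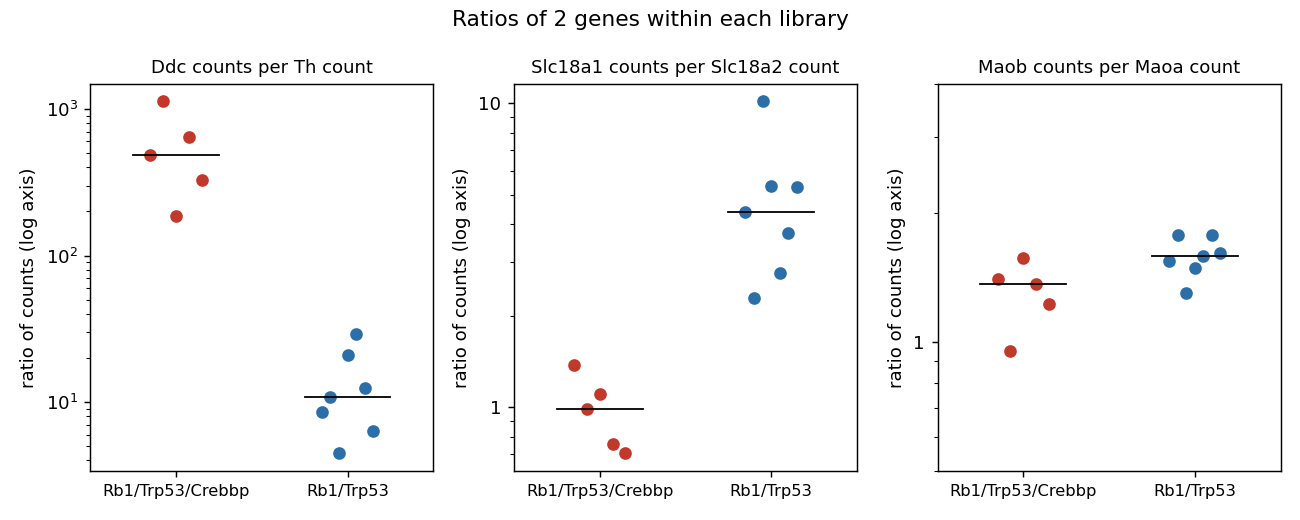
Each panel plots the ratio of the raw counts of 2 genes in the same tumour (log axis), with Rb1/Trp53/Crebbp tumours left of Rb1/Trp53 tumours and lines at the medians. The Ddc per Th and Slc18a1 per Slc18a2 ratios of the genotypes do not overlap, whereas the Maob per Maoa ratios do.

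The cofactor enzyme Gch1 was lower by less. It stood at 49.0, 55.9, 55.1, 64.4 and 38.0 CPM in the Rb1/Trp53/Crebbp tumours. In Rb1/Trp53 tumours it had a lowest value of 61.2, a median of 78.9 and a highest value of 94.6 CPM. Rb1/Trp53/Crebbp replicate 4 lay within the Rb1/Trp53 range, and the other 4 lay below it. The means were 52.5 ± 9.76 CPM (SD, n = 5) in Rb1/Trp53/Crebbp and 77.8 ± 11.5 CPM (SD, n = 7) in Rb1/Trp53 tumours, a log2 fold change of -0.57 ± 0.14 (SE), 1.48-fold lower. The call was lost with scaling by library size alone (log2 fold change -0.40), with a follicular (-0.61) or adipocyte (-0.71) marker score, and without Rb1/Trp53/Crebbp replicate 1 (-0.54). Gch1 still had 22.8 to 101.7 reads per read of Th in Rb1/Trp53/Crebbp tumours, against 2.44 to 7.15 in Rb1/Trp53 tumours, so Th differed by more than the gene that supplies its cofactor.

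The later catecholamine enzymes were close to the limit of detection. Dbh had 1 read in all 5 Rb1/Trp53/Crebbp libraries, in replicate 2, and 5 reads in all 7 Rb1/Trp53 libraries, each of them in replicate 7. At 3 counts, taken as the floor, a library without a read allows a level of up to 0.142 to 0.266 CPM in Rb1/Trp53/Crebbp tumours and of up to 0.0502 to 0.312 CPM in Rb1/Trp53 tumours, depending on its depth. Pnmt had 0, 0, 4, 8 and 2 reads in the Rb1/Trp53/Crebbp tumours and 6, 1, 2, 5, 2, 24 and 26 reads in the Rb1/Trp53 tumours. In all, Pnmt had 14 reads in Rb1/Trp53/Crebbp and 66 in Rb1/Trp53 tumours. The Pnmt reads of the Rb1/Trp53 group came mostly from replicates 6 and 7, at 1.95 and 1.65 CPM, and the groups overlapped. The tryptophan hydroxylase Tph1 was as scarce, with 14 reads over the Rb1/Trp53/Crebbp and 29 over the Rb1/Trp53 libraries. Its highest tumours, at 0.579 CPM in the Rb1/Trp53/Crebbp and 0.630 CPM in the Rb1/Trp53 group, lay close to each other. Dbh, Pnmt and Tph1 were not tested, so nothing is said of a difference between the genotypes.

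The 2 vesicular transporters differed from each other. Slc18a1, the form typical of endocrine cells, stood at 7.37, 7.33, 7.36, 4.17 and 4.49 CPM in Rb1/Trp53/Crebbp tumours. In Rb1/Trp53 tumours its lowest value was 14.0, its median 20.3 and its highest value 33.7 CPM. The groups did not overlap, and the means were 6.15 ± 1.66 CPM (SD, n = 5) in Rb1/Trp53/Crebbp and 21.6 ± 6.78 CPM (SD, n = 7) in Rb1/Trp53 tumours, a log2 fold change of -1.81 ± 0.25 (SE), 3.50-fold lower. This call was lost in 1 of 24 alternative settings, that with a follicular marker score, where the log2 fold change was -2.17. Slc18a2, the form typical of neurons, platelets and mast cells, stood at 5.36, 7.42, 6.65, 5.51 and 6.37 CPM in Rb1/Trp53/Crebbp tumours and between 2.71 and 6.41 CPM, with a median of 5.44 CPM, in Rb1/Trp53 tumours. It was not called in the main test or in any of the 24 alternatives (log2 fold change 0.33 ± 0.23 SE). An antisense gene model, Gm29261, shares 2.12% of the exon bases of Slc18a2 on GRCm38, and the sources used here do not give the strand setting of the counting.

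The ratio of the transporters separated the genotypes without scaling. Reads of Slc18a1 per read of Slc18a2 were 1.38, 0.988, 1.11, 0.758 and 0.705 in Rb1/Trp53/Crebbp tumours. In Rb1/Trp53 tumours they were 4.40, 2.28, 10.2, 5.36, 2.77, 3.73 and 5.31. The highest ratio of the Rb1/Trp53/Crebbp tumours, 1.38, thus lay below the lowest of the Rb1/Trp53 tumours, 2.28.

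The breakdown enzymes overlapped between the genotypes and were not called. Maoa, which prefers serotonin and noradrenaline, stood at 25.5, 26.1, 27.7, 32.1 and 26.6 CPM in Rb1/Trp53/Crebbp tumours and at 21.9 to 37.2 CPM, median 33.1, in Rb1/Trp53 tumours. Its log2 fold change was -0.18 ± 0.13 (SE), and its sign turned with scaling by library size alone (0.02) and with a follicular (0.17) or adipocyte (0.02) marker score. Maob stood at 35.8, 24.8, 43.4, 43.9 and 32.5 CPM in Rb1/Trp53/Crebbp tumours and at 28.4 to 60.0 CPM, median 53.5, in Rb1/Trp53 tumours, with a log2 fold change of -0.47 ± 0.19 (SE). The ranges of both genes overlapped. Maob was called without Rb1/Trp53 replicate 3, both were called by limma voom, and the sign of Maob turned with the follicular score (0.28). Reads of Maob per read of Maoa were 0.951 to 1.57 in Rb1/Trp53/Crebbp and 1.30 to 1.78 in Rb1/Trp53 tumours, with overlap.

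**Figure D3:**
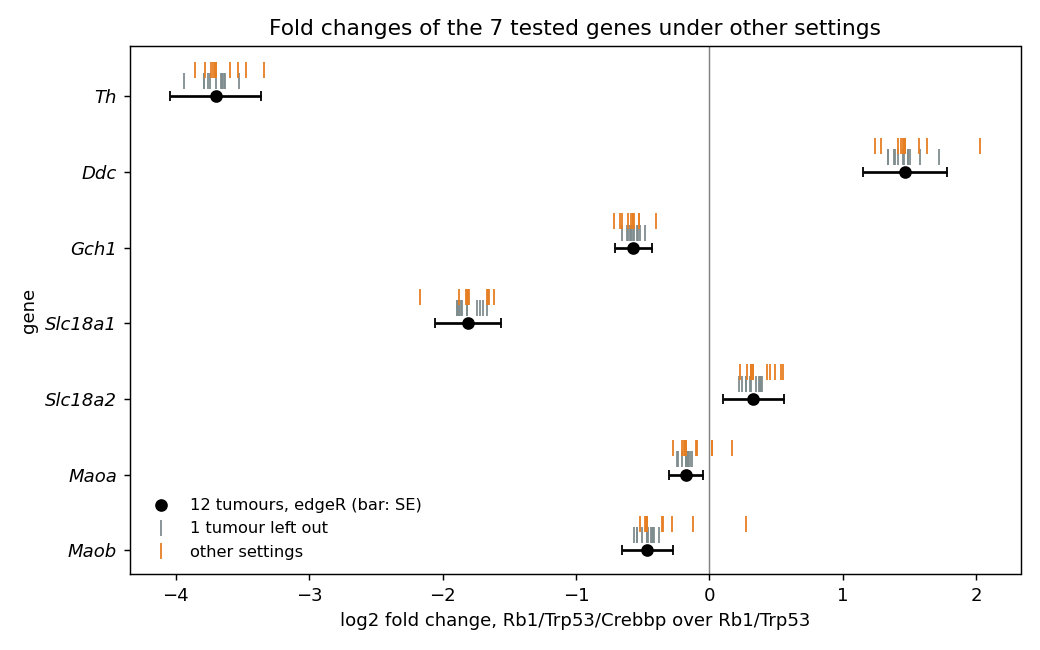
The horizontal axis gives the log2 fold change of Rb1/Trp53/Crebbp over Rb1/Trp53 tumours for the 7 tested genes, with the edgeR value (circle, bar for the SE) and the value in each alternative setting (ticks). All Th and Slc18a1 ticks lie left of 0 and all Ddc ticks right of it, while Maoa and Maob have ticks on both sides.

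Levels of different genes were compared per kilobase of exon. In Rb1/Trp53/Crebbp tumours the order of mean CPM per kilobase was Ddc (143), Maob (12.9), Gch1 (8.40), Maoa (6.63), Slc18a2 (1.20), Slc18a1 (1.14), Th (0.628), Pnmt (0.181), Tph1 (0.0306) and Dbh (0.00681). In Rb1/Trp53 tumours it was Ddc (51.9), Maob (17.9), Gch1 (12.5), Th (8.37), Maoa (7.48), Slc18a1 (3.99), Slc18a2 (0.951), Pnmt (0.573), Tph1 (0.0366) and Dbh (0.0168). Th was 7th in the first order and 4th in the second, and Slc18a1 and Slc18a2 changed places. Most neighbours in these orders overlapped in their ranges. The exceptions were Ddc above Maob in both groups, Maoa above Slc18a2 in Rb1/Trp53/Crebbp tumours, and Slc18a1 above Slc18a2 in Rb1/Trp53 tumours.

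The wider monoamine pathway was examined with 6 lists of other genes, chosen with earlier results of these data known. Of their 97 genes 96 were in the tables and 58 could be tested, of which 5 rose, 7 fell and 46 did not pass the test. That is 20.7% called, beside 18.3% of all genes, and the median log2 fold change was -0.25, against -0.02 for all genes. All 12 calls were lost with a follicular or an adipocyte marker score as a covariate. The adjusted p-values that follow are from edgeR's quasi-likelihood test over all 14989 genes.

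Among 7 genes of tetrahydrobiopterin supply 1 rose, 14.3% beside 9.64% of all genes, the median log2 fold change being -0.28. None of 2 tested hydroxylases and decarboxylases passed, and Moxd1, a homologue of Dbh, had the smaller p (log2 fold change -0.70, adjusted p = 0.285). The brain tryptophan hydroxylase Tph2 was too low to test.

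Of 10 tested transporters 2 fell, 20.0% beside 8.61% of all genes, with a list median of -0.44. Slc18b1, a vesicular polyamine transporter listed under its older name 1110021L09Rik, was at 12.4 ± 1.27 CPM (SD, n = 5) in Rb1/Trp53/Crebbp and 17.4 ± 2.14 CPM (SD, n = 7) in Rb1/Trp53 tumours (adjusted p = 0.0201). Slc3a2, the heavy chain of the carrier that brings in tyrosine and tryptophan, was 1.34-fold lower (adjusted p = 0.0297), a call held in 13 of 24 alternatives and lost without Rb1/Trp53/Crebbp replicate 1, 2 or 5 or Rb1/Trp53 replicate 2, 4 or 6. The Slc18b1 call was lost without Rb1/Trp53/Crebbp replicate 1. The plasma membrane dopamine and serotonin transporters, Slc6a3 and Slc6a4, were too low to test.

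Breakdown enzymes besides the monoamine oxidases had 3 falls and no rise among 8 tested genes, 37.5% beside 8.61% of all genes called as lower, with a list median of -0.60. No test was made of the difference between lists. Aldh2, a mitochondrial aldehyde dehydrogenase that clears the products of monoamine oxidase among other aldehydes, averaged 179 ± 58.3 CPM (SD, n = 5) in Rb1/Trp53/Crebbp and 341.5 ± 64.6 CPM (SD, n = 7) in Rb1/Trp53 tumours (1.91-fold lower, adjusted p = 0.0136). Rnls, the gene of the flavoprotein renalase, stood at 3.28 to 4.49 CPM in Rb1/Trp53/Crebbp and 5.20 to 8.12 CPM in Rb1/Trp53 tumours, with no overlap (1.69-fold lower, adjusted p = 0.0165). The Aldh2 and Rnls calls held when any single tumour was left out. Besides the 2 marker scores, both were lost over replicates 1 to 5 with replicate number as a block. Over the 24 alternatives the log2 fold change ranged from -1.11 to -0.27 for Aldh2 and from -0.86 to -0.55 for Rnls.

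Receptors were sparse, with 8 of 28 tested, 1 higher and 2 lower, 37.5% beside 18.3% of all genes called in either direction. Nothing is read from this share of a short list. Drd2, the inhibitory dopamine receptor, stood at 0.869 to 3.02 CPM in Rb1/Trp53/Crebbp and 0.162 to 0.562 CPM in Rb1/Trp53 tumours, 3.07-fold higher. It had 11 to 34 reads per Rb1/Trp53/Crebbp and 2 to 33 per Rb1/Trp53 tumour. Its highest value was that of Rb1/Trp53/Crebbp replicate 4, and the next was 1.01 CPM. Drd2 passed the count filter only through the Rb1/Trp53/Crebbp tumours, where it was higher. Its call is thus a description, given without a p-value. Adra1a, an alpha-1 adrenergic receptor, was 4.38-fold lower, with 1 to 12 reads per Rb1/Trp53/Crebbp and 4 to 62 per Rb1/Trp53 tumour. It passed the filter through the Rb1/Trp53 tumours, where it was higher, so its call too is given without a p-value. The groups overlapped, with Rb1/Trp53 replicate 3 at 0.416 CPM and Rb1/Trp53/Crebbp replicate 4 at 0.799 CPM. The Adra1a call was lost without Rb1/Trp53/Crebbp replicate 2.

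Transcription factors of the monoaminergic and sympathoadrenal lineages and of the cAMP response had 3 rises and no fall among 23 tested genes, 13.0% beside 9.64% of all genes called as higher, with a median of 0.09. Phox2a, a homeobox factor known for activating Dbh, averaged 8.64 ± 4.20 CPM (SD, n = 5) in Rb1/Trp53/Crebbp and 4.50 ± 1.31 CPM (SD, n = 7) in Rb1/Trp53 tumours (adjusted p = 0.0432), a call held in 9 of 24 alternatives. Nr4a2, a nuclear receptor that dopamine neurons need for Th, averaged 60.3 ± 22.3 CPM (SD, n = 5) in Rb1/Trp53/Crebbp and 30.1 ± 11.2 CPM (SD, n = 7) in Rb1/Trp53 tumours (adjusted p = 0.0309). Atf1, a relative of CREB, stood at 48.9 to 65.4 CPM in Rb1/Trp53/Crebbp and 33.5 to 47.5 CPM in Rb1/Trp53 tumours, with no overlap (1.31-fold higher, adjusted p = 0.0259). The Phox2a call was lost without Rb1/Trp53/Crebbp replicate 1, 2 or 5 or any of Rb1/Trp53 replicates 1, 4, 5, 6 and 7. Leaving out Rb1/Trp53/Crebbp replicate 1 or 5 or Rb1/Trp53 replicate 2 or 4 ended the call of Nr4a2, and leaving out Rb1/Trp53/Crebbp replicate 1 or 2 or Rb1/Trp53 replicate 6 that of Atf1. The sympathoadrenal factors Hand1 and Hand2 were too low to test.

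**Figure D4:**
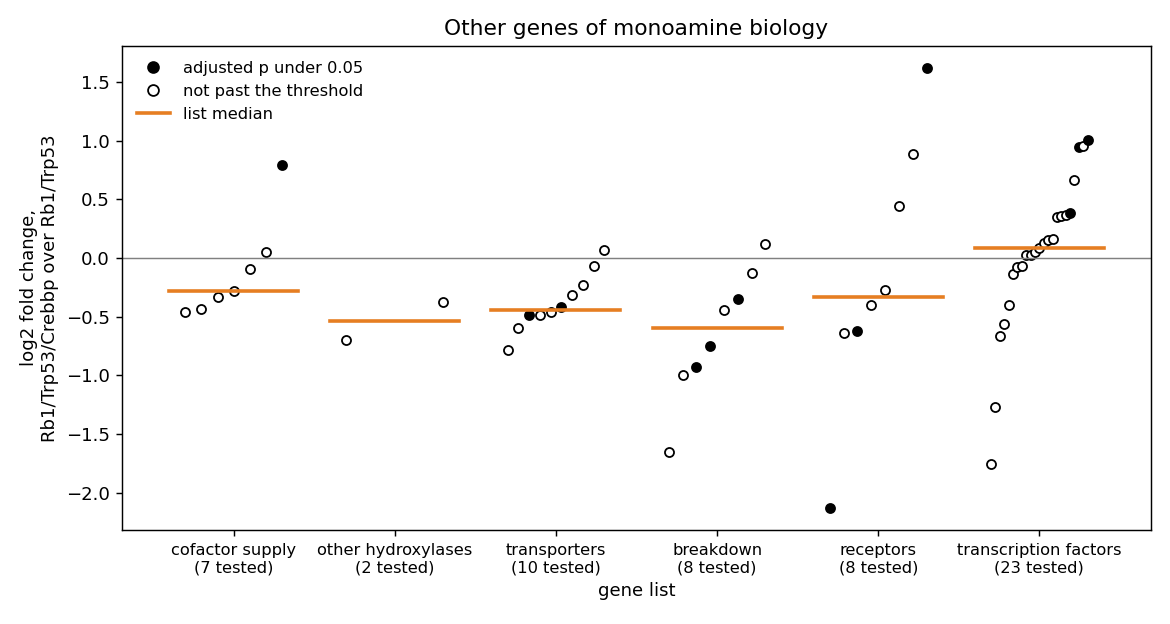
The vertical axis gives the log2 fold change of Rb1/Trp53/Crebbp over Rb1/Trp53 tumours for each tested gene of the 6 lists (horizontal axis), filled where the edgeR adjusted p is under 0.05, with an orange line at each list's median. Breakdown genes have a median of -0.60 and 3 of 8 points filled, below 0, and transcription factors have 3 of 23 points filled, above 0.

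Some markers of other cell types differed between the genotypes, most of them adipocyte markers. Summed adipocyte markers were 56.4 to 133.5 CPM in Rb1/Trp53/Crebbp and 69.6 to 2035 CPM in Rb1/Trp53 tumours, and 10 of 10 fell. Summed thyroid follicular markers were 55.7 to 5752 CPM in Rb1/Trp53/Crebbp and 1639 to 9295 CPM in Rb1/Trp53 tumours, and 2 of 9 tested markers, Tshr and Dio1, fell. Among the others, 2 of 5 Schwann, 1 of 6 endothelial, 1 of 9 C cell (Nkx2-1) and 1 of 3 sympathoadrenal markers fell, and none of 6 mast cell, 7 macrophage, 3 parathyroid or 3 platelet markers was called. Of all tested genes 8.61% were called as lower, and nothing is read from the single calls in these short lists. Summed Schwann markers were 204 to 214 CPM in Rb1/Trp53/Crebbp and 201 to 267 CPM in Rb1/Trp53 tumours, and endothelial ones 39.7 to 126 CPM in Rb1/Trp53/Crebbp and 64.5 to 144 CPM in Rb1/Trp53 tumours. Macrophage markers summed to 213 to 565 CPM in Rb1/Trp53/Crebbp and 276 to 1271 CPM in Rb1/Trp53 tumours.

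Markers of cells that make catecholamines or store serotonin were low. Summed sympathoadrenal markers were 1.74 to 7.41 CPM in Rb1/Trp53/Crebbp and 5.81 to 27.9 CPM in Rb1/Trp53 tumours, the called one being Npy, 2.72-fold lower. The list includes Dbh and Pnmt. Hand1 was at 0 in all Rb1/Trp53/Crebbp tumours and had at most 2 reads in any Rb1/Trp53 tumour. Slc6a2 stood at 17.3 CPM in Rb1/Trp53 replicate 3, most of the highest sum, and at 0.266 to 3.73 CPM in Rb1/Trp53/Crebbp tumours. Mast cell markers summed to 6.11 to 11.1 CPM in Rb1/Trp53/Crebbp and 7.81 to 21.8 CPM in Rb1/Trp53 tumours. Of that list only Ms4a2 was at 0 in all 12. Kit stood at 1.96 to 9.53 CPM and Tpsb2 at 0 to 3.57 CPM over the 12 tumours. Platelet markers summed to 15.2 to 23.7 CPM in Rb1/Trp53/Crebbp and 19.5 to 64.5 CPM in Rb1/Trp53 tumours.

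The Th values of tumours with overlapping marker sums are given beside those sums. The Rb1/Trp53/Crebbp tumours, with adipocyte sums of at most 133.5 CPM, held at most 2.36 CPM of Th, and Rb1/Trp53 replicates 1 and 3, with sums of 69.6 and 122.1 CPM, held 25.7 and 23.4 CPM. Rb1/Trp53/Crebbp replicates 3 and 4, with C cell sums of 110914 and 138417 CPM, held 2.36 and 1.33 CPM of Th, and Rb1/Trp53 replicates 3 and 5, with sums of 106129 and 95549 CPM, held 23.4 and 16.2 CPM. The C cell sums of Rb1/Trp53/Crebbp replicates 1, 2 and 5, at 88341, 30689 and 25211 CPM, lay below those of every Rb1/Trp53 tumour. Follicular sums overlapped only through Rb1/Trp53 replicate 3, at 1639 CPM, which held 23.4 CPM of Th. The other Rb1/Trp53 tumours, at 6237 to 9295 CPM, lay above every Rb1/Trp53/Crebbp tumour, of which the highest was at 5752 CPM. Summed parathyroid markers were 125.8 to 1193 CPM in Rb1/Trp53/Crebbp and 102.5 to 2801 CPM in Rb1/Trp53 tumours, and Rb1/Trp53 replicate 4, with the lowest sum, held 12.3 CPM of Th. The log2 fold change of Th was -3.48 with the follicular score as a covariate and -3.86 with the adipocyte score, beside -3.70 without one. The part of these cell types in the differences of Th, Ddc, Gch1 and Slc18a1 was not tested.

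**Figure D5:**
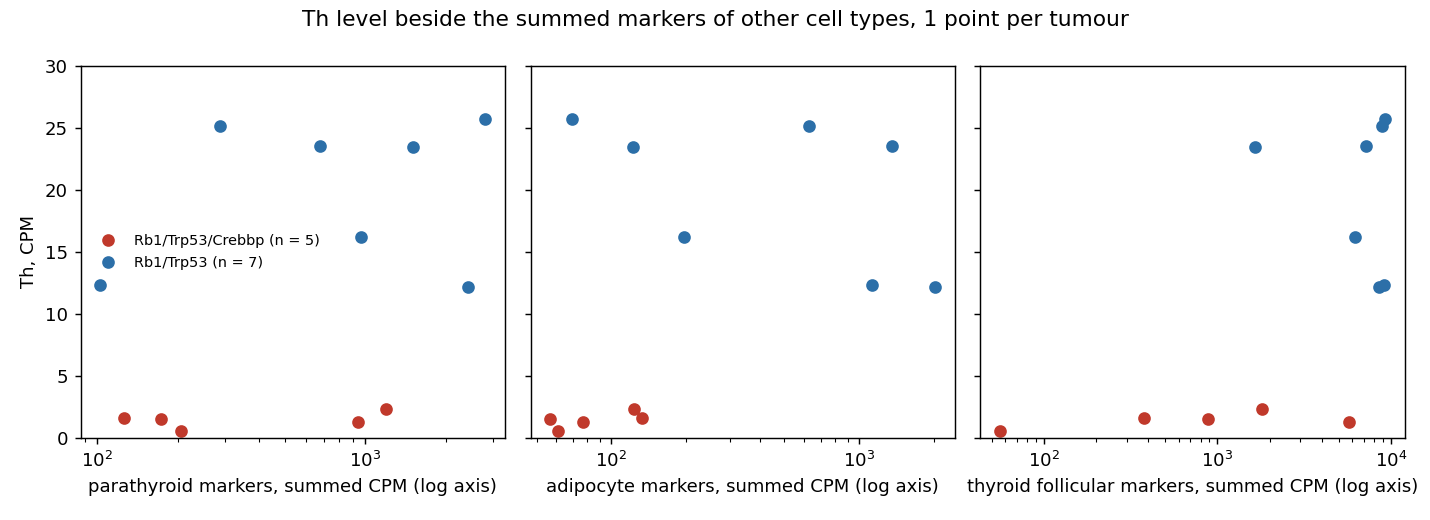
Each panel plots Th in CPM (vertical axis) against the summed CPM of a marker list (log horizontal axis), 1 point per tumour. Rb1/Trp53/Crebbp tumours stay at or below 2.36 CPM of Th and Rb1/Trp53 tumours at or above 12.2 CPM. Adipocyte sums of the groups overlap only through Rb1/Trp53 replicates 1 and 3, and follicular sums only through Rb1/Trp53 replicate 3.

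The genes most like Th and Ddc across the 12 tumours are given as a description, by Pearson r of log2 CPM among 13397 other genes with a mean of at least 1 CPM. For Th they were Osbpl1a (0.970), Gcgr (0.957), Dym (0.956), A4galt (0.951) and Best1 (0.948), with log2 fold changes of -1.62 (Gcgr) to -0.44 (Dym). For Ddc they were Zfp26 (0.950), Pde1c (0.935), Lrch2 (0.933), Rragb (0.931) and Tfrc (0.927). These values carry the genotype difference, which the points share. With the group means taken out, the closest were Dscaml1 (0.907), BC033916 (0.853), Gne (0.841), Camk2b (0.838) and Gpr153 (0.836) for Th. For Ddc they were then Klhdc8b (0.917), Spock3 (0.917), Syt9 (0.900), Armcx5 (0.900) and Ttc3 (0.885), so no gene was among the 5 closest by both measures.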

How the data were processed

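Messenger RNA of 12 mouse tumours was sequenced. RNA was extracted with TRIzol, and poly(A) RNA was captured on oligo(dT) beads for NEBNext Ultra libraries, per the labels' protocols. The submitters' processing notes name bcl2fastq 1.8.2, TopHat2 2.0.12, HTSeq 0.6.1 and the build mm9; the sources used here do not give the annotation or strand setting. The authors deposited raw read counts, not normalized, for 23284 genes per tumour. Library sizes exclude the counter's summary rows: reads outside genes (13.1% to 17.6%), ambiguous (0.704% to 0.880%) and not uniquely aligned (10.9% to 18.5%).

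From these, genes passing filterByExpr (minimum count 10) were scaled by TMM and compared with edgeR 4.0.16's robust quasi-likelihood F test in R 4.3.3 with limma 3.58.1, with Benjamini-Hochberg adjustment over all 14989 tested genes, a threshold of 0.05 and no covariates. The procedure was also tested on simulated data. Log2 CPM used a prior count of 2, and 3 counts were taken as the floor. Lengths are exon unions of GENCODE M21. Tables and figures used Python 3.11.15 with pandas 2.3.3, numpy 2.4.6, scipy 1.17.1 and matplotlib 3.10.9. Alternatives were DESeq2 1.42.0, limma voom, other scalings and filters, marker scores as covariates, a block and leaving out each tumour; the parathyroid score was chosen after seeing the data. The 10 genes and all lists were chosen with earlier results of these data known. Named genes are the 10 genes, per list the 4 called genes of lowest p at most (the gene of lowest p where none was called), each gene's nearest coding neighbours, and the 5 genes most like Th and Ddc. Some genes that meet this rule are not reported here. Markers and factors named as too low, at 0, for their level in a marker list or as called in one lie outside this rule. They were named after their values were seen. Every pair of libraries within a group differed beyond sampling noise.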

Additional observations from a re-analysis of the deposited data

Results flagged for a closer look

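Dixon's criterion for a lone extreme value was applied to the 10 genes in each genotype, 20 groups of values, and it marked 4. Its chance rate of about 1 in 20 holds for normally spread values, not for counts near 0, so the 4 marks are not set against it. Ddc in Rb1/Trp53 replicate 5, at 472.6 CPM, stood far above the other Rb1/Trp53 tumours. The other marked values rest on few reads. Dbh stood at 0.0916 CPM in Rb1/Trp53/Crebbp replicate 2, from 1 read, and at 0.317 CPM in Rb1/Trp53 replicate 7, from 5 reads, with no read in any other tumour. Where all other values of a group are 0, any read is marked, so both Dbh marks were fixed in advance. Pnmt stood at 0.710 CPM in Rb1/Trp53/Crebbp replicate 4, from 8 reads.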

How the results depend on the processing

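Of all genes 2736 were called, with 6357 by limma voom, 3985 by DESeq2, 2379 without a filter, 4 with the follicular score as a covariate (1828 at an unadjusted p under 0.05), 111 with the adipocyte score, and 1074 to 3510 when single tumours were left out (1074 without Rb1/Trp53/Crebbp replicate 2; also over 1.5 times fewer than 2736 without Rb1/Trp53/Crebbp replicate 1, 3 or 5 or Rb1/Trp53 replicate 2, 4 or 6). Of the 10 genes 4 were called, with 1 (Th) under the follicular score, 2 (Th and Slc18a1) under the adipocyte score and 3 to 5 when single tumours were left out. Of the list genes 12 were called, with 20 by limma voom, 0 under either score and 6 to 17 when single tumours were left out (6 without Rb1/Trp53/Crebbp replicate 1 or 2, 7 without Rb1/Trp53 replicate 4). Deviations from the group means correlated little between same-numbered tumours (-0.0560 to 0.159). Only for replicate 1 was the same-numbered tumour the closest match. Such correlations cannot exclude a pairing by litter or batch, which was not tested. Over replicates 1 to 5 with the replicate block 463 genes, 4 of the 10 genes and 2 list genes were called, and without the block 868, 4 and 3. Of the 10 genes, the 4 called ones (Th, Ddc, Gch1 and Slc18a1) kept the sign of their fold change under all 24 alternatives. So did Slc18a2, which was not called (log2 fold changes of 0.23 to 0.56), while Maoa and Maob did not. The alternatives reuse the same tumours, and the genes were chosen on this contrast, so a kept sign is a description only. Dbh, Pnmt and Tph1 had too few reads to test at these depths.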

Other observations

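The nearest coding genes on both sides of the 10 were read off by RefSeq order. The neighbours of Th, Ins2 and Ascl2, were at 0 in all tumours and at 0.175 and 0.152 CPM in Rb1/Trp53/Crebbp and Rb1/Trp53 tumours. Beside Ddc, Fignl1 rose 1.67-fold (edgeR adjusted p = 0.0347), while the imprinted gene Grb10 averaged 11.5 ± 8.21 CPM (SD, n = 5) in Rb1/Trp53/Crebbp and 20.6 ± 7.77 CPM (SD, n = 7) in Rb1/Trp53 tumours (adjusted p = 0.142). Wdhd1, a DNA replication gene beside Gch1, rose 1.74-fold (adjusted p = 0.0147). Pdzd8, beside Slc18a2, rose 1.33-fold with no overlap of the groups (adjusted p = 0.0102), and Saal1, beside Tph1, rose 1.42-fold (adjusted p = 0.0197). Lpl, beside Slc18a1 and itself abundant in fat, was not called (adjusted p = 0.0545), nor were Lzts1, Sergef, Samd4, Fam163b, Sardh, Tcap and Pgap3.

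Genes with the cAMP response element TGACGTCA in a listed promoter were counted apart. Of 372 such tested genes 8.33% were called as higher and 4.30% as lower, with a median log2 fold change of 0.02. Of 10586 tested genes with a listed promoter 9.90% were called as higher and 8.44% as lower, with a median of -0.01. The counts are a description, and no test was made of the difference.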
